A study of Mus musculus with 18 samples.

Results

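The comparison asked by how much the *Cd2ap* mutation effect in glomerular endothelial cells differed from that in mesangial cells. For each transcript cluster, a set of array probes read as 1 transcript, the mutant minus wild type difference of log2 signals in endothelium was taken, and the mutant minus control difference in mesangial cells was subtracted from it. A positive value therefore means that the mutation raised the signal more, or lowered it less, in endothelium. The array carries 28856 transcript clusters. The 12493 that reached a signal of 100, the minimum of the study's methods, on 1 or more of the 12 arrays used were tested. The 12 arrays come from a series of 18, whose podocyte arrays enter only 1 alternative fit. There were 3 arrays in each of 4 groups, and all mice were 5 weeks of age. Endothelial cells carried the Tie2-GFP transgene and came from *Cd2ap* -/- mutant and wild type mice. Mesangial cells carried the Meis1-GFP transgene and came from *Cd2ap* -/- mutant mice and from control mice. The mutants carry a targeted *Cd2ap* null allele in every cell of the body, and not in the sorted cells alone. The column names mark the mesangial controls with 1 plus and 1 minus sign while the sample records list them as wild type, which leaves their genotype unsettled, and the word control is used for them. Cells were sorted by GFP from sieved glomeruli, and their RNA was amplified in a single round before hybridization to Affymetrix Mouse Gene 1.0 ST arrays. Nothing in the sources used here says how many animals gave each sample, so p values measure the spread between these samples. The 3 arrays of a group are called A, B and C in column order, which pairs nothing between groups.

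CD2AP is an adaptor protein that anchors nephrin and podocin to the actin cytoskeleton at the podocyte slit diaphragm, and mice without it develop nephrotic syndrome and glomerulosclerosis. Mesangial cells are the contractile, matrix-producing cells between the capillary loops, and the fenestrated endothelium lines those loops. Neither cell type builds the slit diaphragm, so a contrast between them compares 2 neighbours of the affected cell.

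The marker lists matched the labels in kind. Summed over 12 mesangial markers such as *Pdgfrb* and *Itga8*, signals were 946 to 1298 in endothelial mutants, 899 to 967 in endothelial wild type, 12524 to 13979 in mesangial mutants and 14823 to 16229 in mesangial controls. Summed over 18 endothelial markers they were 24375 to 24928, 22172 to 23396, 3964 to 4280.2 and 4260.3 to 10847 in the same order. Mesangial control array C stood apart. It held the top of the last range, and its summed podocyte markers were 6238, against 1878 to 1929 in the mesangial mutants. The sexes were also unbalanced. The Y-linked *Ddx3y* was above *Xist* in 2 of 3 endothelial mutants, 0 of 3 endothelial wild type, 0 of 3 mesangial mutants and 2 of 3 mesangial controls, so that sex moved with genotype in opposite senses in the 2 cell types. A fit with a term for these sex transcripts ended most calls. The median interaction of the clusters called higher was 0.86 in that fit and 0.90 without the term. For those called lower it was -1.10 and -1.18. The values of that fit for the named genes follow the results. *Cd2ap* itself (transcript cluster 10451004) had signals of 891, 966 and 920.4 in endothelial mutants and 839.8, 859 and 757 in endothelial wild type arrays. In mesangial cells they were 819, 870.4 and 797 in mutants and 922, 1037 and 1123 in controls. All 3 endothelial mutants lay above all 3 wild type arrays and all 3 mesangial mutants below all 3 controls. Neither effect passed the test, and its interaction was 0.48 (standard error 0.13, adjusted p = 0.0705). The gene targeted in the mutants was thus not lower in the endothelial arrays labelled mutant, so it does not check those labels. Its mesangial effect of -0.31 did not pass the test, so the mesangial labels are not settled by it either. In these arrays the directions in both cell types are drawn from the labels alone. The paper lists *Ifit1*, *Ifit2* and *Ifit3* among genes up-regulated in mutant endothelium by its RNA-seq, which is also their direction under the array labels. Whether the probes lie in a part of the transcript that the allele removes is not given in the sources used here.

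The genes whose change differed between the cell types did so in several ways. In some only the endothelial rise passed the test, among them 13 of 38 tested interferon-stimulated genes such as *Ifit1*, *Ifit2* and *Ifit3*. In others only a mesangial rise passed it, as for *Aldh1a2*, *Tslp* and *Col14a1*, or only a mesangial fall, as for *Glb1l2*, *Steap4* and *Cd34*. In a few, *Ucp2* among them, an endothelial rise and a mesangial fall both passed. The mutation effect differed between the 2 cell types for 289 transcript clusters (2.31% of those tested) at an adjusted p under 0.05. In 207 of them (1.66%) the effect was higher in endothelium, and in 82 (0.656%) it was lower. With the study's own thresholds for single comparisons, an unadjusted p under 0.05 and here a ratio of fold changes over 1.5, 719 (5.76%) were higher and 265 (2.12%) lower. The higher and lower calls were not alike in where the change lay. Of the 207 higher calls, only the mesangial fall passed the test by itself in 118 and only the endothelial rise in 56. Both passed in opposite directions in 4, and neither passed in 29. Of the 82 lower calls, only the mesangial rise passed in 69, only the endothelial fall in 6 and neither in 7. An effect that missed the test may still have been present. Counting also the calls whose endothelial effect passed, the endothelial groups did not overlap in 139 of the 207 and 25 of the 82. Over all clusters tested, endothelial mutants lay above wild type without overlap in 16.4% and below in 7.92%. The calls were chosen by a contrast that holds the endothelial difference, so these 2 counts are partly fixed by that choice. Over all clusters tested, 156 (1.25%) rose and 26 (0.208%) fell in endothelial mutants, and 317 (2.54%) rose and 476 (3.81%) fell in mesangial mutants. The 2 effects, which share no array, had a Pearson's r of 0.09 across the 12493 clusters, which are not independent replicates. Part of the mesangial-driven calls concern transcripts with little endothelial signal: 38 of the 118 and 36 of the 69 stayed below 100 in all 6 endothelial arrays.

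**Figure D1:**
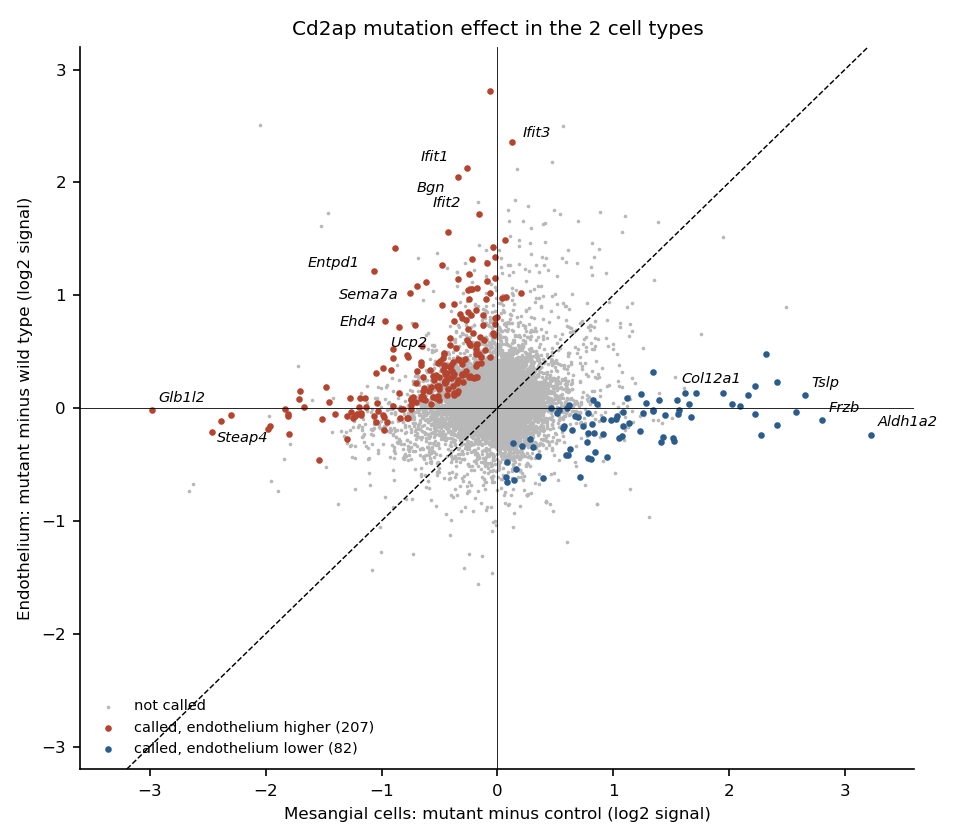
Each point is 1 of the tested transcript clusters, with the mesangial mutation effect on the x axis and the endothelial effect on the y axis, both as log2 differences of mean signal. The clusters of *Xist* and *Ddx3y* are not drawn. Clusters on the dashed diagonal changed equally, the 207 called higher (red) lie above it and the 82 called lower (blue) below it, and the blue points spread along the mesangial axis.

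A second description reads the same contrast from the side of the cell types. The interaction is the amount by which the gap between endothelium and mesangium differs between mutant and control arrays. This gap was narrower in mutants for 86 of the 207 higher calls and for 17 of the 82 lower calls. The gap was counted for called clusters alone, with no share over all clusters tested. The counts in this paragraph therefore describe the calls and do not set them apart from other clusters. Among the 69 lower calls in which only the mesangial rise passed the test, this gap was narrower in 9. Its median went from -0.35 in controls to -1.81 in mutants on the log2 scale. In most of these 69 calls the gap was thus not narrower in mutants. Among the 118 higher calls in which only the mesangial fall passed, 64 had a narrower gap, with a median of -0.47 in controls and 0.23 in mutants.

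In 4 transcript clusters both effects passed the test and were opposed: *Ucp2*, *Fam55c*, *Gm5431* and 1 cluster of *Rnf213*. *Gm5431* reached 100 in mesangial control C alone (104) and was at 30.9 to 75.9 in endothelium, so its endothelial effect lies below the minimum. *Fam55c* and *Gm5431* were named after their values were seen. Counting arrays instead, all 3 endothelial mutants lay above all 3 wild type arrays and all 3 mesangial mutants below all 3 controls in 271 clusters (2.17%), and the reverse held in 86 (0.688%). In 1 cell type at a time, endothelial mutants lay above wild type without overlap in 16.4% of all clusters and below in 7.92%, and mesangial mutants above controls in 12% and below in 15.6%. Of the calls, 82 of the 207 and 19 of the 82 had such an opposed pattern. The genes *Rnf213*, *Entpd1*, *Ehd4*, *Ucp2* and *Sema7a* were put forward for this contrast with results of these data known, so their values describe the pattern and do not test it anew.

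*Entpd1* encodes the ectonucleotidase CD39, which degrades extracellular ATP and ADP on the endothelial surface. Its signals were 1219.8, 914 and 1371 in endothelial mutants and 563, 569 and 384 in wild type, and 160.0, 221 and 103 in mesangial mutants and 237, 351 and 400.5 in controls. The groups did not overlap in either cell type, and the order was opposite. The interaction was 2.28 (standard error 0.40, adjusted p = 0.0163), of which 1.21 (adjusted p = 0.0609) was the endothelial and -1.06 (adjusted p = 0.0497) the mesangial effect. *Ehd4*, an Eps15 homology domain ATPase of endocytic recycling, had 486, 293 and 407 in endothelial mutants and 259, 218 and 208 in wild type. In mesangial cells it had 168, 196 and 169 in mutants and 358, 392 and 297 in controls. Neither pair of groups overlapped, and the order was again opposite. Its interaction was 1.74 (standard error 0.24, adjusted p = 0.00457), with a mesangial effect of -0.97 (adjusted p = 0.00901) and an endothelial effect of 0.77 that missed the threshold (adjusted p = 0.0534).

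*Ucp2*, a carrier of the inner mitochondrial membrane, had the smallest standard error of the 5. Signals were 395, 351 and 393 in endothelial mutants and 238, 203 and 252 in wild type, and 95.9, 126 and 108 in mesangial mutants and 185, 187 and 221 in controls. Both effects passed the test, 0.72 (adjusted p = 0.0182) and -0.85 (adjusted p = 0.00216), and the interaction was 1.57 (standard error 0.17, adjusted p = 0.00105). *Sema7a*, a GPI-anchored semaphorin, had 1144, 776 and 917 in endothelial mutants and 685, 396 and 357 in wild type. Its mesangial signals were near the minimum, at 71.1, 67.6 and 95.3 in mutants and 109, 108 and 188 in controls. Its interaction of 1.78 (standard error 0.39, adjusted p = 0.0403) was the least firm of the 5: without mesangial control C it was 1.52 (adjusted p = 0.0534), and the threshold was missed in 7 of the 12 fits that left out 1 array.

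*Rnf213*, a large ubiquitin ligase and ATPase linked to moyamoya vasculopathy and induced by interferon, is read by 15 transcript clusters, of which 14 were tested. All 14 interactions were positive, from 0.47 to 2.30 with a median of 1.28, and 8 passed the threshold. These clusters read 1 gene and are not independent. In the cluster of highest mean signal (10383168) the signals were 864, 878 and 745 in endothelial mutants, 427, 392 and 384 in wild type, 376, 295 and 409.8 in mesangial mutants and 511.9, 325 and 462 in controls. The endothelial rise was 1.05 (adjusted p = 0.0159) and the mesangial groups overlapped, and this cluster had an interaction of 1.30 (standard error 0.24, adjusted p = 0.017). The endothelial rise passed the test in 8 clusters and a mesangial fall in 1. That 1 is cluster 10383198, with an interaction of 2.30 and effects of 1.42 and -0.88. Without endothelial wild type array C, the interaction of the first cluster had an adjusted p of 0.0509.

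**Figure D2:**
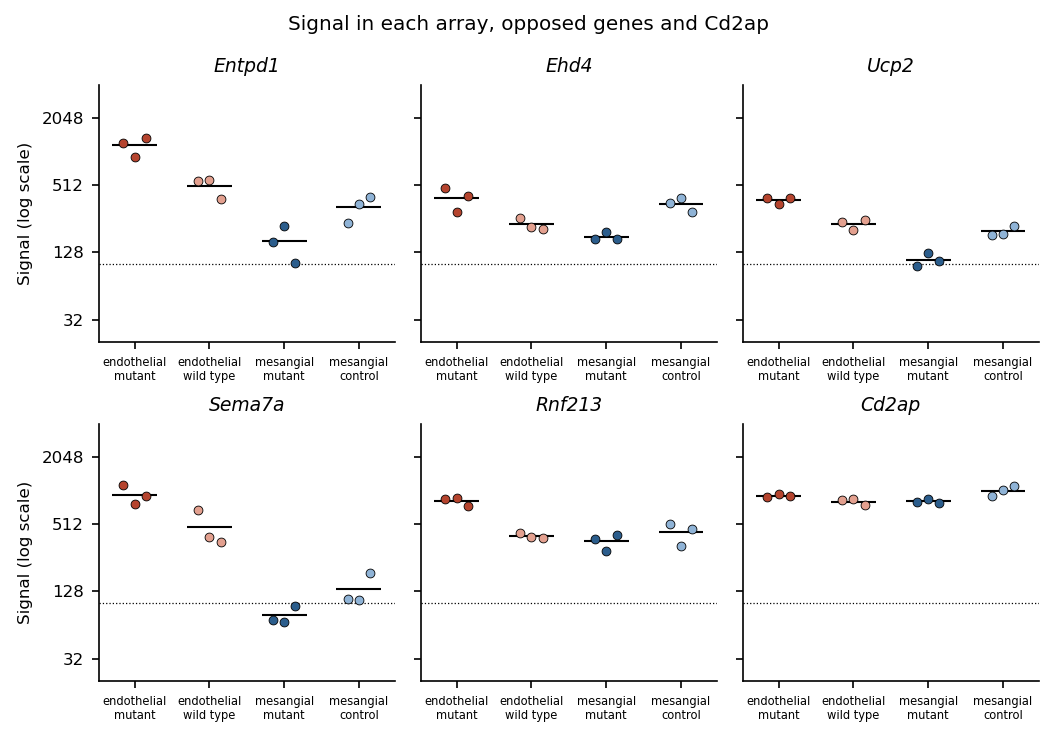
Signal of each array on a log axis for the 5 genes and *Cd2ap*, with 3 points for each group, a bar at the group mean and a dotted line at the signal minimum of 100. Endothelial mutants lie above wild type and mesangial mutants below controls in *Entpd1*, *Ehd4*, *Ucp2* and *Sema7a*, while the mesangial groups of *Rnf213* overlap.

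Other called genes with the same array pattern were chosen for naming after their values were seen, and 3 are given as examples. *Gas6*, a ligand of the TAM receptor kinases, had 561, 401 and 548 in endothelial mutants, 323, 279.7 and 297 in wild type, 136, 102 and 113 in mesangial mutants and 204, 137 and 251 in controls, with an interaction of 1.45 (standard error 0.29, adjusted p = 0.0271). *Vcl* (vinculin, of focal adhesions) had 515, 381 and 414 in endothelial mutants and 309.9, 275 and 191 in wild type, and 1511, 1528 and 1469 in mesangial mutants and 2189.8, 2006 and 1688 in controls. Its interaction was 1.15 (standard error 0.24, adjusted p = 0.0345). *Efnb1*, which encodes the ligand ephrin-B1, had an interaction of 1.06 (standard error 0.17, adjusted p = 0.0101).

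Genes induced by interferon were the list with the most calls, and in all 13 the endothelial effect passed the test and the mesangial effect did not. Type I and type II interferons signal through JAK kinases to transcription factors that bind interferon-stimulated response elements, IRF9 among them. Of a list of 45 interferon-stimulated genes, 38 were tested, 13 had a higher effect in endothelium and 0 a lower one, against 1.66% and 0.656% over all clusters. In limma at an unadjusted p under 0.05 and a ratio over 1.5, 26 were higher and 0 lower. *Rnf213*, put forward for this contrast with results of these data known, is 1 of the 13 called. The counts of this list are thus partly fixed by that choice. The median interaction of the list was 0.92, beside 0.10 over all clusters, and the median effect was 0.84 in endothelium and -0.02 in mesangial cells. By themselves, 20 members rose in endothelial mutants and 0 rose and 1 fell in mesangial mutants, beside 1.25%, 2.54% and 3.81% of all clusters. Without mesangial control C the list median was 0.87, and with the sex term it was 0.96, with 2 members called. Not every interferon-induced transcript had this pattern: a cluster shared by *Ifi204* and *Mnda*, named after its values were seen, rose in both cell types, by 1.71 (adjusted p = 0.0159) in endothelium and 1.10 (adjusted p = 0.0364) in mesangial cells. Clusters shared by *Parp9* and *Dtx3l*, also named after their values were seen, were called higher, with interactions of 1.48 (adjusted p = 0.00753) and 1.06 (adjusted p = 0.0323).

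The IFIT genes, whose proteins bind foreign RNA, led the list. *Ifit1* had signals of 467, 407 and 434 in endothelial mutants and 109, 86.4 and 105 in wild type, and 399, 229.7 and 492 in mesangial mutants and 584, 293 and 459 in controls. *Ifit3* had 1957, 1536 and 2119 in endothelial mutants and 313, 434 and 345 in wild type, and 2101, 1489 and 2319 in mesangial mutants and 2169.6, 1389 and 1842 in controls. For both genes the wild type endothelium was the low group, and mutant endothelium reached the level that mesangial cells of either genotype already had. The interactions were 2.40 (standard error 0.39, adjusted p = 0.011) for *Ifit1* and 2.23 (standard error 0.29, adjusted p = 0.00315) for *Ifit3*. *Ifit2* had 639.8, 677 and 557 in endothelial mutants and 222, 179 and 169 in wild type, above and below all 6 mesangial arrays (247 to 358), with an interaction of 1.88 (standard error 0.21, adjusted p = 0.00105). *I830012O16Rik*, named Ifit3b in RefSeq, had 640.5, 421 and 614 in endothelial mutants and 62.7, 108 and 70.9 in wild type, and 244 to 624 over the mesangial arrays. Its interaction was 2.88 (standard error 0.48, adjusted p = 0.0118), and whether its probes also read *Ifit3* was not tested.

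The stretches below are shown because *Ifit1*, *Ifit3* and Ifit3b moved together and hold the element searched for. *Ifit2* moved with them, and its promoter windows held no exact match to the string searched for. A copy outside those windows or with other bases would have been missed, so whether *Ifit2* lacks the element was not tested. The stretches are from RefSeq promoters, from 200 to 51 bases before the transcript start, in build GRCm38.p6 on the plus strand. Matches to the core of the interferon-stimulated response element are in capitals (GAAA, then any 2 bases, then GAAA, here read on the opposite strand). *Ifit1* is chr19:34640689-34640838, *Ifit3* is chr19:34583329-34583478 and Ifit3b is chr19:34607757-34607906.

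Ifit1: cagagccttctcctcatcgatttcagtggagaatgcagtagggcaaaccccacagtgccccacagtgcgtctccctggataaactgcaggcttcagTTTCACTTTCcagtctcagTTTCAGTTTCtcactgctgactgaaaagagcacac
Ifit3: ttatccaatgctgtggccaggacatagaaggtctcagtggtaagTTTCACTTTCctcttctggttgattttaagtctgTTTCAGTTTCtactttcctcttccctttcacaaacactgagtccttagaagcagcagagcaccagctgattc
Ifit3b: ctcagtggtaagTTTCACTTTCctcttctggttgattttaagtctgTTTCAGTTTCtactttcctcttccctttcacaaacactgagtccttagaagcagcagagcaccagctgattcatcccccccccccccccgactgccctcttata

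The 2 matches lie 104 and 85 bases before the start in *Ifit1*, 156 and 122 in *Ifit3*, and 188 and 154 in Ifit3b. The spacing of 34 bases is the same in *Ifit3* and Ifit3b, whose stretches share an identical run of 118 bases, while *Ifit1* has a spacing of 19 and shares a run of 13 bases with *Ifit3*. Promoters of 250 bases before to 50 after the start were searched on both strands for this response element and for the gamma-activated site TTCNNNGAA, for the called genes whose symbol matched 1 RefSeq gene with a promoter (142 of 181 higher and 40 of 61 lower). The response element was in 11 of the 142 (7.75%) and in 2 of the 40 (5.0%), beside 3.54% of 7100 tested genes and 3.99% of 27025 genes in the table. Where the endothelial effect of a higher call passed the test it was in 7 of 37 (18.9%), and where the mesangial effect did, in 3 of 90 (3.33%). TTCNNNGAA was in 9.15% of the higher calls and in 5.0% of the lower, beside 8.45% of tested genes and 9.55% of the table. A match is a string of letters and no evidence of binding.

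The other called members of the list, beside *Rnf213*, were *Oasl2* (1.42, adjusted p = 0.0324), *Dhx58* (1.21, adjusted p = 0.0323), *Eif2ak2* (1.10, adjusted p = 0.0223) and *Ddx58* (0.86, adjusted p = 0.0413), whose products bind viral RNA, the GTPase *Mx2* (1.47, adjusted p = 0.0212), and *Cmpk2*, *Ifi35*, *Oas1b* and *Trim25* at 0.63 to 1.05. *Mx2* missed the threshold in 3 of the 12 fits without 1 array. Its signals were 232, 169.8 and 151 in endothelial mutants and 53.05 to 92.1 in all other arrays, so this gene was high in 1 group alone. Of the 13 called members, the mean of the endothelial mutants lay above all 6 mesangial arrays in 10 and within their range in 3. In control arrays, wild type endothelium lay below the mesangial controls in 8 without overlap. The other 25 tested members did not pass the test, and the intervals of 2 abundant ones lay near 0. *Ifitm3*, at 2689.9 to 3279 over the 12 arrays, had an interaction of 0.13 (95% interval -0.09 to 0.35), and *Ifitm2* one of -0.02 (-0.30 to 0.26).

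Upstream of these genes, 16 of 21 listed receptors, STATs and IRFs were tested, and 2 were called higher, beside 1.66% of all clusters. *Irf9*, a transcription factor of the interferon response, had 336, 305 and 262 in endothelial mutants and 167, 175 and 174 in wild type, beside 167 to 209.6 in mesangial cells, and an interaction of 0.82 (standard error 0.16, adjusted p = 0.0224) that missed the threshold in 5 of the 12 fits without 1 array. *Jak2*, the kinase of several cytokine receptors, had an interaction of 0.61 (standard error 0.13, adjusted p = 0.0403) made of effects in both cell types that did not pass alone, and it missed the threshold in 10 of the 12 fits without 1 array. The master regulator *Irf7*, named after its values were seen, rose in endothelium (2.50, adjusted p = 0.0115) but its interaction of 1.93 (adjusted p = 0.0726) missed the threshold, with mesangial signals of 238, 134 and 344 in mutants and 216, 79.5 and 196 in controls. The receptor subunits *Ifnar1*, *Ifnar2* and *Ifngr2* did not pass the test, at 0.29, 0.21 and -0.01. *Stat3*, a STAT of the interleukin 6 family, is a contrast to the list: it rose in both cell types, by 0.40 (adjusted p = 0.046) in endothelium and 0.49 (adjusted p = 0.00777) in mesangial cells, and its interaction was -0.09 (95% interval -0.35 to 0.18).

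The interferon-inducible GTPases, which act on membranes of intracellular pathogens, had positive interactions but no call. Of 17 listed genes, 8 were tested, all 8 interactions were positive with a median of 1.13, 0 passed the adjusted threshold in limma and 6 passed the unadjusted one with a ratio over 1.5, beside 5.76% of all clusters. In endothelial mutants 6 of the 8 rose, beside 1.25% of all clusters. *Iigp1* had 1245, 1945 and 1187 in endothelial mutants and 557, 342 and 422 in wild type, and in mesangial cells 1370.4, 955 and 1679 in mutants and 1062, 630.3 and 1076 in controls. The mesangial groups overlapped with a wide spread, and the interaction was 1.18 (standard error 0.40, adjusted p = 0.123). *Gbp9* had an interaction of 0.52 (95% interval -0.78 to 1.82). Another 7 of the 17 lie only on clusters shared between near copies, such as *Irgm2* with *Igtp*. Of the antigen presentation genes, 14 of 24 were tested, 0 were called and 6 passed the unadjusted screen, all higher, beside 5.76% of all clusters. Their median was 0.50. *B2m*, the light chain of MHC class I, had signals of 3281 to 3845 over the 12 arrays and an interaction of -0.01 (-0.24 to 0.22), and *Psme1*, a proteasome activator subunit, one of 0.38 (-0.02 to 0.77).

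Outside the interferon lists, *Bgn* and *Ada* were the listed genes in which the endothelial rise carried the call. *Bgn*, the small leucine-rich proteoglycan biglycan, had 630.2, 280.1 and 457 in endothelial mutants and 101, 135 and 84.3 in wild type, and 1253, 1325 and 1634 in mesangial mutants and 1817, 1772 and 1705 in controls. All endothelial arrays lay below all mesangial arrays, and neither pair of genotypes overlapped, with an interaction of 2.38 (standard error 0.36, adjusted p = 0.00696). Of the 12 mesangial markers, 1 also rose in endothelial mutants: *Serpine2*, a secreted protease inhibitor, had 467, 177 and 251 in mutants and 119, 95.4 and 131 in wild type, with its arrays in the same order as *Bgn* within the mutants and an effect of 1.27 (adjusted p = 0.0444). Over the 6 endothelial arrays the markers *Pdgfrb* and *Itga8* were at 51.2 to 65.04 and 49.7 to 96.4, below the minimum of 100. *Rgs5*, also below it, had 92.7, 43.7 and 51.6 in endothelial mutants, in the order of *Bgn*, and 55.8, 31.5 and 45.6 in wild type. The median endothelial effect of the 12 mesangial markers was -0.12. The part of mesangial RNA in the rise of *Bgn* was not tested. *Ada*, adenosine deaminase, had 513, 446 and 330.2 in endothelial mutants and 211, 152 and 163 in wild type and 49.6 to 74.7 in mesangial cells, below the minimum of 100, with an interaction of 1.38 (standard error 0.27, adjusted p = 0.0245). It missed the threshold in 5 of the 12 fits without 1 array. *Ada* and *Entpd1* were the 2 called of 14 tested genes of extracellular nucleotides and adenosine, beside 1.66% of all clusters, and the list's median was 0.25. *Entpd1* is 1 of the 5 genes put forward, so this count is partly fixed by that choice.

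In most lower calls, 69 of 82, the mesangial rise passed the test and the endothelial effect did not. *Aldh1a2*, which makes retinoic acid from retinal, had 1324, 1128 and 1485 in mesangial mutants and 94.8, 192 and 149 in controls, and 46.5 to 61.2 over the 6 endothelial arrays. Its interaction of -3.46 (standard error 0.29, adjusted p = 0.000361) was the largest in size among the called clusters. The other 8 tested genes of retinoic acid synthesis and its receptors were not called. *Ptgs2*, the inducible cyclooxygenase, had 337, 526 and 247 in mesangial mutants, 57.03, 62.7 and 57.4 in controls and 42.3 to 47.6 in endothelium, with an interaction of -2.62 (standard error 0.29, adjusted p = 0.00105). The other 7 tested genes of prostaglandin synthesis and receptors were not called. For genes like these, with endothelial signals below the minimum, the contrast is close to the mesangial change alone, and an endothelial change of the transcript could not be read at this signal.

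Secreted signals formed part of this set. *Tslp*, an epithelial cytokine that acts on dendritic cells, had 165, 169 and 271 in mesangial mutants, 33.3, 29.9 and 30.1 in controls and 24.95 to 33.7 in endothelium, an interaction of -2.54 (standard error 0.25, adjusted p = 0.000552). *Ccl2*, the monocyte chemoattractant, had 174, 163 and 147 in mesangial mutants, 79.6, 56.2 and 57.4 in controls and 51.7 to 61.7 in endothelium, an interaction of -1.36 (standard error 0.19, adjusted p = 0.00443). In both genes all 3 mesangial mutants lay above every other array. They were the 2 calls among 10 tested chemokines and cytokines, beside 0.656% lower over all clusters, with a list median of -0.60. *Frzb*, a secreted Wnt antagonist, had 605, 636 and 633 in mesangial mutants and 43.9, 181 and 90.1 in controls, with an interaction of -2.91 (standard error 0.51, adjusted p = 0.0159). *Fam19a1*, a secreted chemokine-like protein now named Tafa1, had 1111, 575 and 1012 in mesangial mutants and 157, 168 and 162 in controls, with an interaction of -2.57 (standard error 0.28, adjusted p = 0.00105). *Tgfb3*, a ligand of the TGF-beta family, had 236, 292 and 315 in mesangial mutants and 156, 118 and 71.8 in controls and an interaction of -1.37 (standard error 0.32, adjusted p = 0.0482), which missed the threshold in 10 of the 12 fits without 1 array.

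Extracellular matrix genes went both ways. Of 44 listed, 32 were tested, 5 were called lower and 2 higher, beside 0.656% and 1.66% of all clusters, with a median of -0.12. *Col12a1*, a fibril-associated collagen, had 1986, 2069.7 and 2310.1 in mesangial mutants and 533, 623 and 494 in controls, and 47.6 to 62.9 in endothelium, an interaction of -1.82 (standard error 0.17, adjusted p = 0.000383). *Col14a1*, of the same collagen class, had 507, 351 and 563 in mesangial mutants and 82.6, 85.9 and 139 in controls, an interaction of -2.27 (standard error 0.29, adjusted p = 0.00272). *Thbs1*, thrombospondin 1, an activator of latent TGF-beta, had 706, 1265 and 1318 in mesangial mutants and 256, 139.6 and 217 in controls and 70.3 to 113 in endothelium, an interaction of -2.18 (standard error 0.37, adjusted p = 0.0135). All 3 rose in mesangial mutants without overlap. *Col8a1* and *Fbln5* were lower with -1.37 and -1.02. The 2 higher calls were *Bgn* and *Postn*, periostin, which fell in mesangial mutants from 136, 152 and 191 to 44.3, 34.6 and 42.04 and was at 30.8 to 37.2 in endothelium. The basement membrane collagens *Col4a1* and *Col4a2* were not called, at 0.58 (0.11 to 1.04) and 0.44 (-0.10 to 0.98). *Fn1*, fibronectin, named after its values were seen, rose in mesangial mutants (2.49, adjusted p = 0.00175) and had an endothelial effect of 0.90 (adjusted p = 0.203), and its interaction of -1.59 (adjusted p = 0.102) missed the threshold.

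Intracellular genes completed the largest lower calls. *Errfi1*, a feedback inhibitor of the EGF receptor, had 1216, 1032 and 881 in mesangial mutants and 176, 209 and 243 in controls. In endothelium it had 192, 140.3 and 134 in mutants and 105, 103 and 123 in wild type, so both cell types were higher in mutants and the mesangial difference was larger, with an interaction of -1.84 (standard error 0.24, adjusted p = 0.00288). The endothelial effect did not pass the test (0.48, adjusted p = 0.173). It was the 1 call among 12 tested glucocorticoid-responsive genes, beside 0.656% lower over all clusters. *Ankrd1*, a cardiac ankyrin repeat protein and YAP target, had 287, 692 and 525 in mesangial mutants and 135, 117 and 84.8 in controls, an interaction of -2.08 (standard error 0.37, adjusted p = 0.0167). *Ociad2* and *Ccdc68* had interactions of -2.02 (standard error 0.37, adjusted p = 0.0188) and -2.04 (standard error 0.24, adjusted p = 0.00197).

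The higher calls driven by the mesangium were transcripts lower in mutant mesangial cells. *Glb1l2*, a beta-galactosidase-like protein, had 83.8, 94.04 and 136 in mesangial mutants and 599, 915 and 968 in controls, and 52.7 to 58.9 in endothelium, with an interaction of 2.97 (standard error 0.27, adjusted p = 0.000383). *Steap4*, a metalloreductase, had 81.1, 63.1 and 78.4 in mesangial mutants and 364, 438 and 359 in controls and an interaction of 2.27 (standard error 0.19, adjusted p = 0.000361). *Tmem182*, a membrane protein, had 224, 196 and 141 in mesangial mutants and 965, 1043 and 732 in controls and an interaction of 2.24 (standard error 0.27, adjusted p = 0.00197). In these 3 genes the mesangial groups stood far apart and the endothelial signals stayed below 100. In such bulk samples, fewer cells of a kind and less RNA per cell cannot be told apart. *Gm10808* had an interaction of 2.26 (standard error 0.52, adjusted p = 0.0482), which missed the threshold in 10 of the 12 fits without 1 array.

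2 PDGF ligands were also lower in mutant mesangial cells. *Pdgfc* had 194, 175 and 154 in mesangial mutants, 670.2, 636 and 512.5 in controls and 41.4 to 59.9 in endothelium, an interaction of 1.57 (standard error 0.20, adjusted p = 0.00291). *Pdgfd*, which signals through PDGF receptor beta, had 183, 167 and 172 in mesangial mutants and 466, 350.0 and 451 in controls and 337 to 505 in endothelium with overlap between genotypes, an interaction of 1.36 (standard error 0.23, adjusted p = 0.0138). These were the 2 calls among 13 tested genes of endothelin, nitric oxide and PDGF signalling, beside 1.66% of all clusters.

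Genes that endothelium holds at a high level were also among these calls. *Cd34*, a sialomucin of endothelial and stromal cells, had 1509, 1646 and 1789.7 in endothelial mutants, 1559, 1326 and 1117 in wild type, 700.3, 755 and 825 in mesangial mutants and 1570.2, 1495 and 1632 in controls. The mesangial groups differed and did not overlap, the endothelial groups overlapped, and the interaction was 1.36 (standard error 0.17, adjusted p = 0.00265). *Tek*, the angiopoietin receptor Tie2, had 398, 323 and 324 in mesangial mutants and 575, 783 and 1090.5 in controls, of which control C was the highest, and 1871 to 2297 in endothelium. Its interaction was 1.27 (standard error 0.26, adjusted p = 0.0322), and 1.04 (adjusted p = 0.0205) without control C, but the call was lost in 8 of the 12 fits without 1 array. *Tek* and the junction protein *Esam* (0.77, adjusted p = 0.0474) were the 2 calls among 18 tested endothelial markers, beside 1.66% of all clusters, and *Esam* lost its call in 10 of those 12 fits, without control C among them. The list had a median of 0.69, which was 0.08 without control C and 0.14 with the sex term. Summed endothelial markers thus moved with this list, and their part in *Tek* and *Esam* was not tested. The adhesion genes *Vcam1* and *Sele*, which bind leukocytes, were not called, with 0.93 (0.20 to 1.67) and 0.52 (-0.65 to 1.70). *Id3*, a BMP target, *Plxnd1*, a semaphorin receptor, and *Klf2*, a shear-responsive transcription factor, had smaller interactions of 0.68 (adjusted p = 0.0312), 0.65 (adjusted p = 0.0324) and 0.60 (adjusted p = 0.0452). Each of these 3 fell in mesangial mutants, and their interactions missed the threshold in 8, 9 and 11 of the 12 fits without 1 array.

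**Figure D3:**
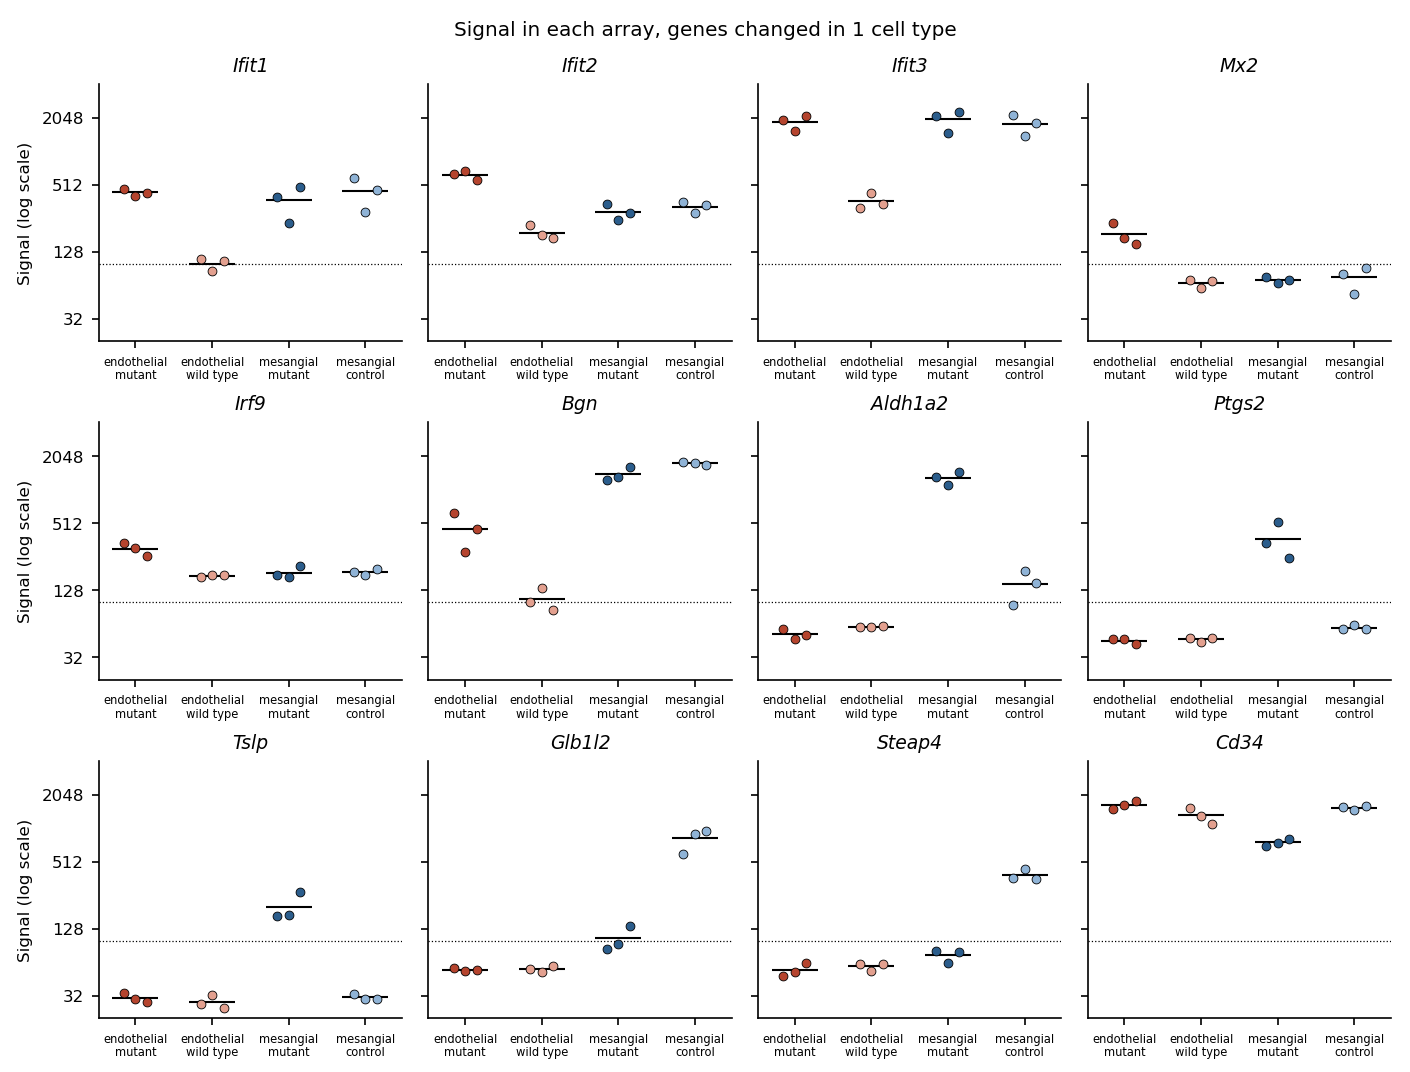
Signal of each array on a log axis for 12 genes whose call came mainly from 1 cell type, with 3 points for each group, a bar at the group mean and a dotted line at the minimum of 100. *Ifit1*, *Ifit2*, *Ifit3*, *Mx2*, *Irf9* and *Bgn* rose in endothelial mutants, *Aldh1a2*, *Ptgs2* and *Tslp* rose in mesangial mutants, and *Glb1l2*, *Steap4* and *Cd34* fell in mesangial mutants.

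Other lists held few calls or none. Of genes of endothelial leukocyte adhesion, 11 were tested and 2 called higher (*Cd34* and *Esam*), with a median of 0.69, which was 0.47 without control C and 0.39 with the sex term. Of semaphorins, plexins and neuropilins, 19 were tested and 2 called higher, of EHD and recycling genes 18 and 1, of mitochondrial carriers 6 and 1, of VEGF, angiopoietin and Notch genes 20 and 1, of immediate early genes 17 and 1, and of TGF-beta and BMP genes 29 with 1 higher and 1 lower, beside 1.66% higher and 0.656% lower over all clusters. *Sema7a*, *Ehd4* and *Ucp2* are among these calls, and the lists were built around them, so their counts are partly fixed by that choice. No member was called among 16 tested sterol synthesis genes (median 0.06, 1 in the unadjusted screen), 15 contractile genes (median -0.03, 1 in that screen), 13 proliferation genes (median 0.15, 0 in that screen) and 10 clock genes (median 0.18, 2 in that screen). The sterol, contractile and proliferation medians were 0.12, 0.03 and 0.06 without control C, and -0.0069, 0.08 and -0.0056 with the sex term. The clock median was 0.07 under quantile normalization. *Acta2*, smooth muscle actin, had 811, 1689 and 1562 in mesangial mutants and 627, 680.4 and 539 in controls, and an interaction of -0.89 with a 95% interval of -1.98 to 0.21. *Myl9*, *Cald1*, *Clock*, *Nr1d2*, *Pcna*, *Mcm6*, *Hmgcs1* and *Insig1* were not called either. Their 95% intervals differed in width, from -0.25 to 0.30 for *Cald1* to -0.71 to 1.44 for *Nr1d2*, and that of *Insig1*, -0.66 to -0.01, left out 0 before adjustment. Of the marker lists of other cells, mesangial (12 tested), podocyte (18), juxtaglomerular and smooth muscle (4), leukocyte (9), tubule (7) and erythroid (1) genes had 0 calls, with medians of 0.30, 0.43, 0.04, 0.15, 0.20 and -0.02. By the mesangial effect alone, 4 of the 12 mesangial markers fell in mesangial mutants, beside 3.81% of all clusters, with a list median of -0.33, and their part in the calls with a mesangial fall was not tested. The 4 tested sex-linked genes had 0 calls and a median of 3.87. Without control C the podocyte, leukocyte and tubule medians were 0.13, 0.0032 and -0.0042, and with the sex term -0.03, -0.42 and -0.16. The leukocyte marker *Tyrobp* was uneven within groups, at 475, 274 and 151 in endothelial mutants, 108, 179 and 201 in wild type, 168, 1261 and 159 in mesangial mutants and 130.2, 69.01 and 523 in controls.

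**Figure D4:**
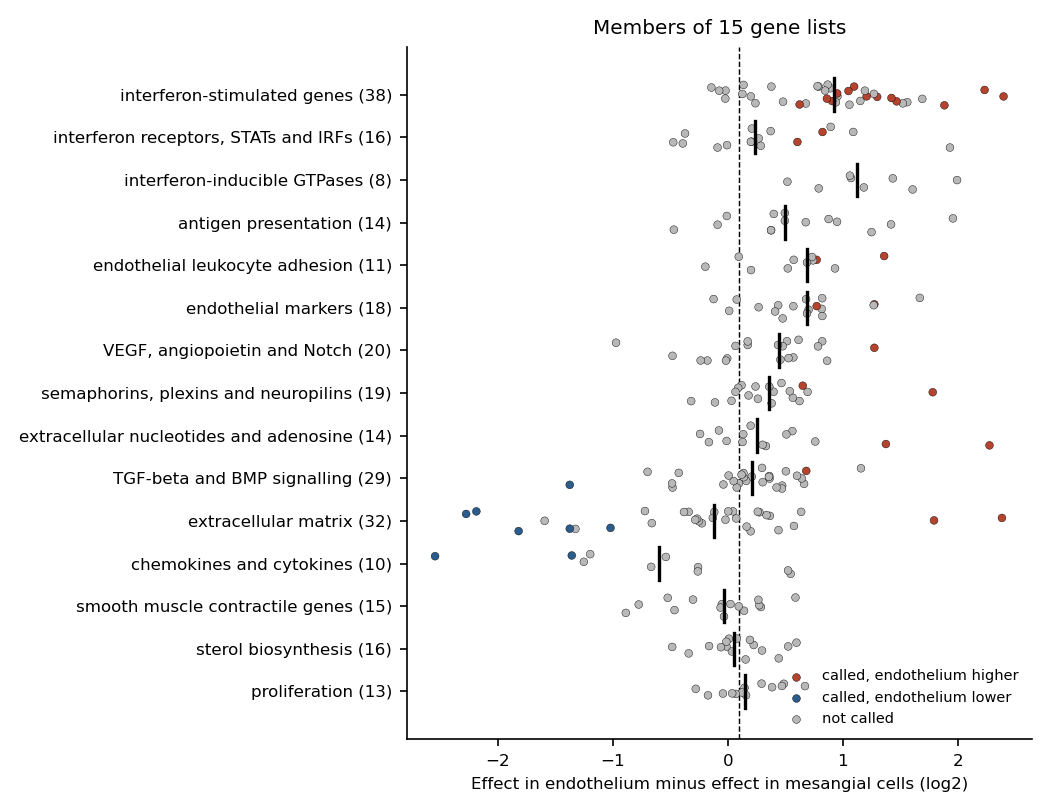
Interaction of each tested member of 15 gene lists (x axis, log2), with the number tested in parentheses, a thick bar at the list median and a dashed line at the median of all 12493 clusters. Interferon-stimulated genes hold 13 calls on the right, and the calls on the left are spread over several lists, 5 of them in matrix genes.

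Leaving out the array that stood apart changed the number of calls little, and the sex term changed it more than leaving out any single array did. Without mesangial control C, 204 clusters were called higher and 73 lower, among them 139 of the 207 and 60 of the 82. With the sex term, 20 and 13 were called, among them 20 of the 207 and 12 of the 82. In that fit 202 and 80 had the same sign and an unadjusted p under 0.05, but as they were chosen as calls on the same arrays this is no independent support. The medians of the 207 and the 82 were 0.86 and -1.10, beside 0.90 and -1.18 in the fit without the term. In the 8 arrays with *Xist* above *Ddx3y*, which leave 1 endothelial mutant and 1 mesangial control, 12 were higher and 5 lower, with lone samples assumed to vary like the other groups. Among the 5 genes put forward, *Ucp2* kept an adjusted p under 0.05 with the sex term, at 1.54 (adjusted p = 0.0444), whereas *Ehd4* had 1.85 (adjusted p = 0.0896), *Entpd1* 2.08 (adjusted p = 0.276), *Rnf213* 1.42 (adjusted p = 0.186) and *Sema7a* 1.497 (adjusted p = 0.471). *Ifit2* and *Ifit3* passed with 1.87 (adjusted p = 0.0444) and 2.72 (adjusted p = 0.0319), and *Aldh1a2*, *Ptgs2*, *Tslp*, *Col12a1*, *Col14a1*, *Errfi1*, *Fam19a1*, *Glb1l2*, *Steap4*, *Tmem182* and *Cd34* passed as well. The other called genes among the named ones did not pass, and their interactions with the sex term are given here. In endothelium-driven calls they were *Ifit1* 2.84 (adjusted p = 0.0882), *I830012O16Rik* 3.08 (adjusted p = 0.164) and *Bgn* 2.51 (adjusted p = 0.12). *Mx2* had 1.34 (adjusted p = 0.317), *Irf9* 0.64 (adjusted p = 0.394) and *Ada* 0.93 (adjusted p = 0.464). Among the lower calls they were *Frzb* -3.77 (adjusted p = 0.0562), *Ccdc68* -1.535 (adjusted p = 0.0755), *Ccl2* -1.09 (adjusted p = 0.165) and *Thbs1* -1.975 (adjusted p = 0.244). *Ociad2* had -1.79 (adjusted p = 0.314), *Ankrd1* -1.69 (adjusted p = 0.328) and *Tgfb3* -0.76 (adjusted p = 0.596). Among the remaining higher calls they were *Pdgfc* 1.61 (adjusted p = 0.0755), *Klf2* 0.81 (adjusted p = 0.14), *Gm10808* 3.06 (adjusted p = 0.158) and *Jak2* 0.77 (adjusted p = 0.166). *Pdgfd* had 1.44 (adjusted p = 0.178), *Id3* 0.73 (adjusted p = 0.273) and *Esam* 0.81 (adjusted p = 0.352). *Plxnd1* had 0.57 (adjusted p = 0.399) and *Tek* 0.95 (adjusted p = 0.477). The sex term was estimated from the endothelial mutants and the mesangial controls, the groups that hold arrays of both kinds. Mesangial control C, the array that stood apart, is 1 of the 2 mesangial controls with *Ddx3y* above *Xist*. The sex term can therefore also take up what set that array apart, and the fit with the term and the fit without control C are not separate checks. The part of sex in the calls was not tested beyond these fits.

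**Figure D5:**
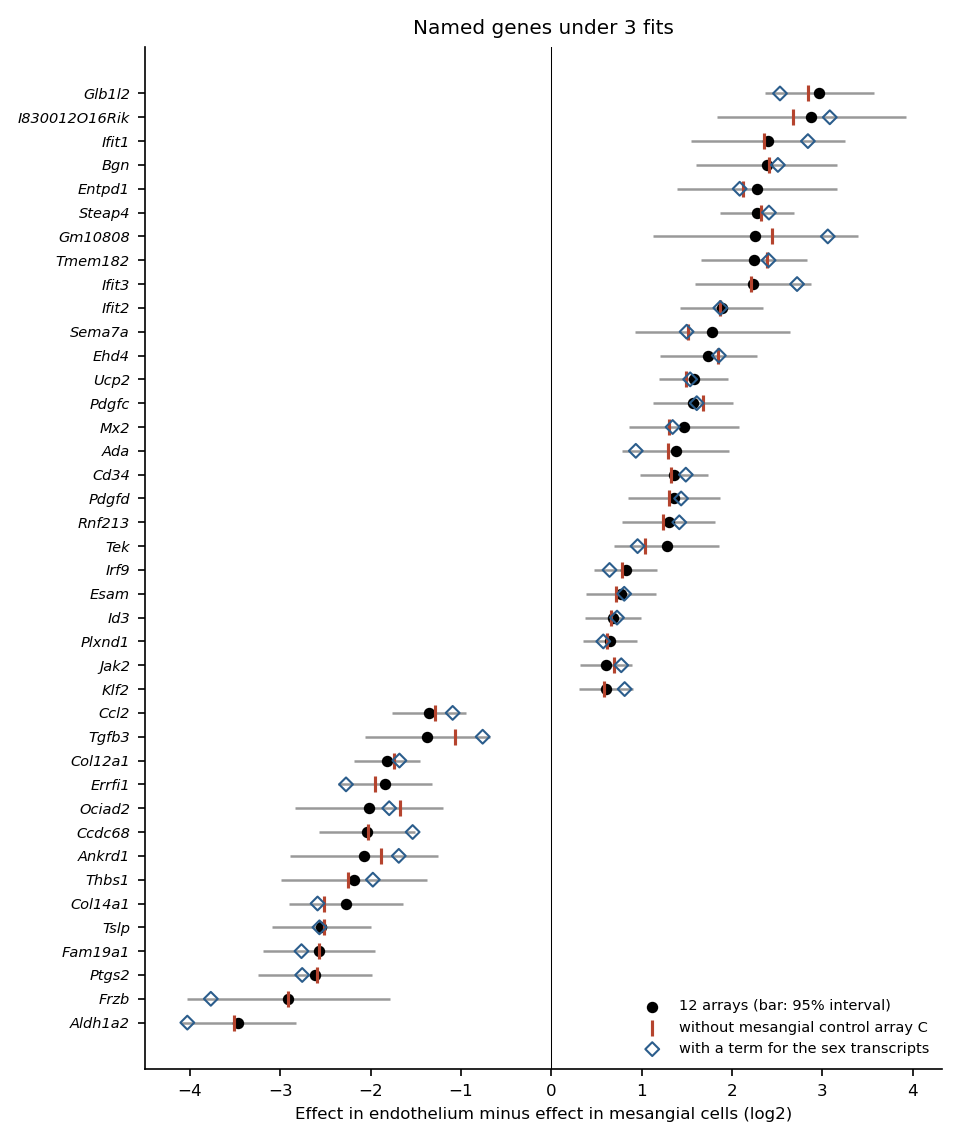
Interaction of the 40 called named genes (x axis, log2) with the 95% interval of the fit over 12 arrays, and the value without mesangial control array C and with a term for the sex transcripts. All 40 lie on the same side of 0 in the 3 fits.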

How the data were processed

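RNA of GFP-sorted glomerular cells was amplified in a single round and hybridized to Mouse Gene 1.0 ST arrays. Per the labels the authors summarized probes with RMA, their methods name GeneSpring 12.6.1, and the series record names another array type and program, so the exact steps are not settled. The table the authors deposited holds a linear intensity per transcript cluster and array, used here after taking log2. Its other 18 columns of values, a normalized form of the same arrays, were not used here. Array medians of the deposited intensity were 62.8 to 67.0. Background and compression at low signal shrink fold changes of dim transcripts.

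Signals of at least 100 in at least 1 of 12 arrays were required. limma 3.58.1 in R 4.3.3 fitted 4 group means (lmFit, eBayes), with 3 arrays per group, and tested the difference of the 2 mutation effects over 12493 clusters. Calls had a Benjamini-Hochberg adjusted p under 0.05. The number of arrays limits the precision. In simulated data, limma recovered 76% of 100 clusters changed 2-fold and 98% of 100 changed 4-fold. Of all clusters, 25254 had a gene symbol and 2815 of these several. Those with several were left out of the lists and of naming, apart from the shared clusters given with all their symbols.

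The members, gene lists and named genes were chosen with earlier results of these data known. Named genes were the 5 put forward and *Cd2ap*, the 10 largest calls in each direction with 1 symbol and groups that do not overlap in at least 1 cell type, and for each list up to 4 calls or, where none passed, up to 2 members of highest mean signal. A gene with several clusters was read from that of highest mean signal. Promoter sequences are from RefSeq, GRCm38.p6. Of 242 called genes with 1 symbol, 240 were found in RefSeq. The alternatives were other scalings, filters, weights and fits, each array left out, and, chosen after seeing the data, a sex term and the arrays with *Xist* above *Ddx3y* alone.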

Additional observations from a re-analysis of the deposited data

Results flagged for a closer look

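The contrast is itself a test of whether 1 mutation had a different effect in 2 cell types, so each call is a result of this kind. By limma's interaction test it differed in 207 clusters with a higher and 82 with a lower effect in endothelium. Among the named genes 26 were higher and 14 lower, with standard errors of 0.13 to 0.52 on the log2 scale.

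The named higher values, as log2 interactions, were *Glb1l2* 2.97, *I830012O16Rik* 2.88, *Ifit1* 2.40, *Bgn* 2.38, *Entpd1* 2.28, *Steap4* 2.27, *Gm10808* 2.26, *Tmem182* 2.24, *Ifit3* 2.23, *Ifit2* 1.88, *Sema7a* 1.78, *Ehd4* 1.74 and *Ucp2* 1.57. Further higher values were *Pdgfc* 1.57, *Mx2* 1.47, *Ada* 1.38, *Cd34* 1.36, *Pdgfd* 1.36, *Rnf213* 1.30, *Tek* 1.27, *Irf9* 0.82, *Esam* 0.77, *Id3* 0.68, *Plxnd1* 0.65, *Jak2* 0.61 and *Klf2* 0.60. The named lower values were *Ccl2* -1.36, *Tgfb3* -1.37, *Col12a1* -1.82, *Errfi1* -1.84, *Ociad2* -2.02, *Ccdc68* -2.04, *Ankrd1* -2.08, *Thbs1* -2.18, *Col14a1* -2.27, *Tslp* -2.54, *Fam19a1* -2.57, *Ptgs2* -2.62, *Frzb* -2.91 and *Aldh1a2* -3.46. With 3 arrays per group, no formal outlier test was run on single arrays.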

How the results depend on the processing

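All 40 called named genes kept their direction under every alternative in which they were tested, and 26 kept an adjusted p under 0.05 whichever array was left out. The number of calls was less stable. The 207 higher and 82 lower calls became 115 and 54 with all 18 arrays in 1 fit, and 487 and 156 with array weights. With array medians subtracted, 599 were higher and the screen held 1091, which raised the share of higher calls from 71.6% to 88.1% and the median interaction to 0.18. Quantile normalization gave 143 and 108, a share of 57.0%. With the sex term 20 and 13 were called and the screen held 477 higher, and with the arrays of *Xist* above *Ddx3y* alone 12 and 5. The cause was not tested. Leaving out 1 array gave 95 to 305 higher and 47 to 117 lower calls, the fewest without endothelial wild type C (95 and 49). Without endothelial mutant A there were 103 and 50, without endothelial wild type B 109 and 47, without mesangial mutant A 115 higher, and without mesangial mutant B 119 and 50. The median of the EHD and recycling list, 0.24, was 0.17 as the mean over all clusters of a gene, 0.065 under quantile normalization and 0.14 with the sex term. No paired analysis was possible because the groups share no replicate numbers in the labels. Signals under 100 limit what endothelium can show for mesangial transcripts.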
